A study of Mus musculus with 5 samples.

Results

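The genes described here are the amino acid transporters of 7 solute carrier families, taken as every row of the table whose symbol belongs to Slc1, Slc3, Slc6, Slc7, Slc36, Slc38 or Slc43 and ends in a number. This rule found 59 of the 22609 genes. Gene expression was measured by RNA sequencing of poly(A) RNA from mouse mammary gland, in 2 wild-type libraries and 3 libraries labelled Nfib-null. All mice were outbred, and all glands were taken on the day of delivery, less than 12 hours after birth, without the lymph nodes. NFIB, the product of Nfib, is a transcription factor of the nuclear factor I family, and the series asks how it and STAT5, which acts downstream of the prolactin receptor, govern gene expression induced by pregnancy.

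The table holds a single value per gene and group in RPKM (reads counted on a gene, divided by its length and by the mapped reads), so levels of different genes can be compared per length. The wild-type column carries the name of the wild-type libraries. The other column is named NfibFF-WC, which the labels do not spell out. By the labels, elimination alone links it to the Nfib-null group, the only other group of the series. Of its values with 10 decimals 84.4% end as a mean of 3 does, and the Nfib-null group has 3 libraries. The labels do not say in which cells of the gland the gene was deleted. Nfib itself measured 55.3 RPKM there against 33.7 RPKM for wild-type glands. On the log2 scale the difference was 0.30 with each column scaled to a median ratio of 1 over all genes and −0.32 with scaling to markers of the luminal epithelium, and a whole-gene value can hold reads from exons that remain. With 1 value a group no difference had a replicate check, and no p-value is given. Depth could be estimated only roughly from the smallest values. The clearest steps lay near 14900000 and 17700000 reads per library in wild-type glands and near 27200000 and 32900000 in Nfib-null glands. Weaker wild-type steps lay near 17000000 and 16000000. The next Nfib-null steps, near 22900000, 13500000 and 11000000, were about equally clear. With the 2 clearest wild-type steps taken as the depths, 1 kb of transcript at 1 RPKM gives some 32.6 reads over both wild-type libraries.

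Milk-producing cells import free amino acids from blood to build milk protein. Most carriers of the Slc1, Slc6 and Slc38 families move their substrates along with sodium. Those of the Slc36 family move them along with protons, and those of the Slc43 family by facilitated diffusion. The rule goes by symbol, so the set also holds carriers of other substrates, such as Slc6a8 (creatine) and Slc43a3 (purine nucleobases). Most Slc7 carriers are exchangers that swap an amino acid inside for another outside. Several of them reach the cell surface only when bound to a heavy chain of the Slc3 family.

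The tissue was whole gland, and genes of several cell types differed between the columns. The 7 casein, Wap and Lalba genes held 50.9% of all RPKM in wild-type and 24.8% in Nfib-null glands. All 10 adipocyte markers and all 18 luminal epithelial markers, from the cells that secrete milk, were detected in both columns. The summed level of the adipocyte markers was 10416 RPKM in the Nfib-null column against 2154 RPKM in the wild type, and 9 of the 10 were at least 2-fold higher after scaling. The luminal markers summed to 2200 against 1147 RPKM, with 5 of 18 at least 2-fold higher and 0 lower. Fibroblast markers summed to 1610 against 437 RPKM (7 of 7 higher) and macrophage markers to 446 against 130 RPKM (7 of 8 higher), while endothelial markers (170 against 123 RPKM, 0 of 7 beyond 2-fold) differed less. Lymphocyte markers summed to 7.99 against 20.4 RPKM, and 5 of the 6 above the expression minimum were lower. Over all 12511 genes above that minimum, 6.95% were at least 2-fold higher and 5.97% lower after scaling. The marker sums are unscaled, and before scaling the median log2 ratio of all genes above the minimum was 0.41. The part of these marker differences in the values of the transporters was not tested. In such a bulk sample fewer cells of a type and less RNA per cell cannot be told apart.

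The make-up of the summed transporter mRNA differed between the columns. The 59 genes summed to 773 RPKM in Nfib-null and 568 RPKM in wild-type glands, a ratio of 1.36 as deposited. As a share of all RPKM in the column they made up 0.141% against 0.0600%, beside 24.8% against 50.9% for the 7 milk protein genes. With those 7 genes left out of the column's sum the shares were 0.187% against 0.122%. Before scaling, the median ratio of all genes above the expression minimum was 0.41 on the log2 scale. In the wild type the highest were Slc38a2 (107 RPKM), Slc7a5 (90.5 RPKM) and Slc3a2 (70.9 RPKM). Among Nfib-null values Slc1a5 was highest (186 RPKM), followed by Slc3a2 (91.2 RPKM), Slc38a2 (56.6 RPKM), Slc7a5 (53.2 RPKM) and Slc7a10 (50.9 RPKM). By level Slc1a5 ranked 5 and Slc7a10 18 among the wild-type values. The Slc38 and Slc7 families held 32.8% and 30.6% of the transporter RPKM in wild-type glands against 16.2% and 18.7% in the Nfib-null column, whereas the Slc1 family held 12.7% against 30.4%.

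Fold changes were computed for the 30 members whose level, averaged over all 5 libraries, was 1 RPKM or more. Each column was divided by a factor that sets the median ratio of all genes to 1, and differences are on the scale of log2(scaled RPKM + 1) and positive where the Nfib-null value was higher. Of the 30, 7 (23.3%) were higher by 2-fold or more in Nfib-null glands, against 6.95% of the 12511 genes kept in the whole table. Another 5 (16.7%) were lower by 2-fold or more, against 5.97% of all genes. The remaining 18 lay within 2-fold, and the median over the 30 was −0.01, against 0 for all genes. The 7 higher genes were Slc1a1, Slc7a10, Slc1a5, Slc36a2, Slc43a1, Slc6a6 and Slc43a2, and the 5 lower ones Slc7a4, Slc38a3, Slc38a2, Slc7a5 and Slc7a1. The split depended on the scaling, with 9 higher and 2 lower for values as deposited (14.4% and 2.95% of all genes) and 8 and 3 with equal sums without the 20 most abundant genes (9.38% and 4.38%). There were 7 and 4 with quantile normalization (6.75% and 5.48%) and 5 and 11 with scaling to the luminal epithelial markers (2.11% and 20.8%). Slc1a1 and Slc6a13 passed the minimum through the Nfib-null column alone, and without Slc1a1 the number of higher members was 6.

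**Figure D1:**
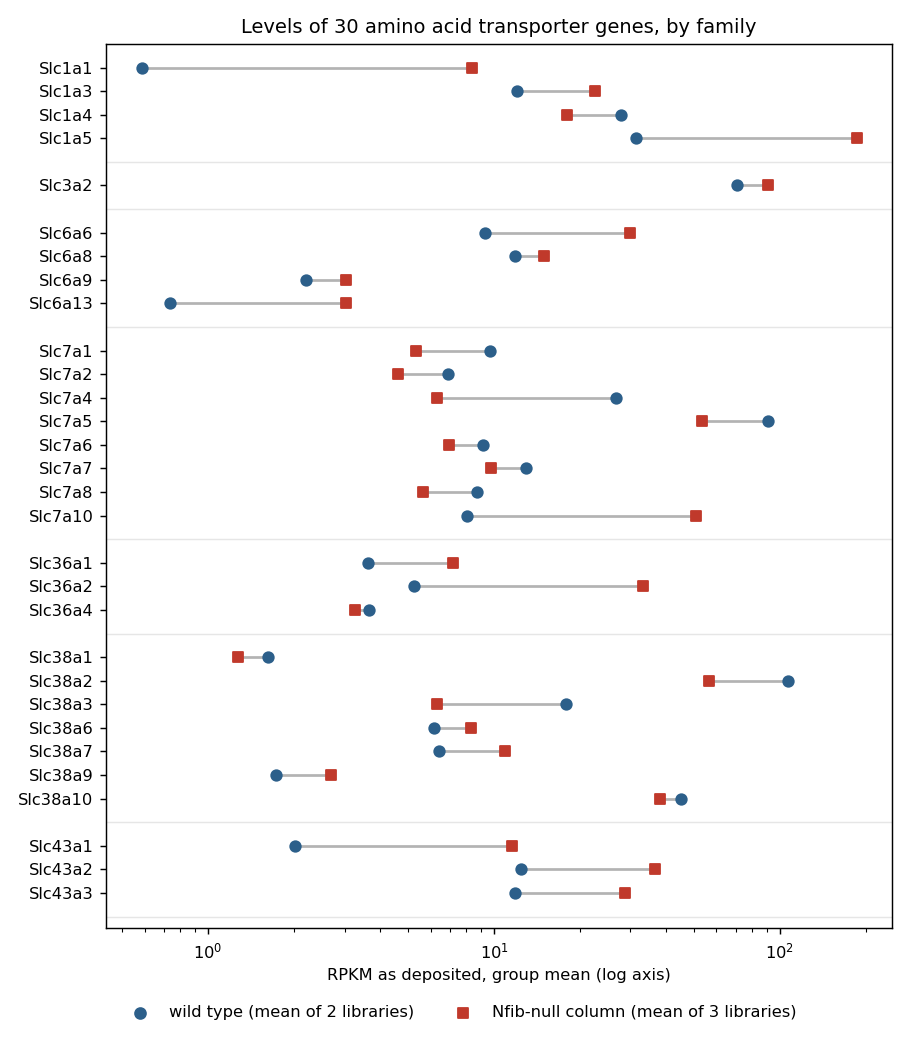
Deposited RPKM of the 30 kept members by family on a log axis, with circles for the wild-type column (mean of 2 libraries) and squares for the Nfib-null column (mean of 3 libraries). The Nfib-null value of Slc1a5 lies highest of all (186 RPKM), and 7 of the 8 Slc7 genes have the square to the left of the circle.

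The promoter windows of 5 members from the RefSeq table (build GRCm38.p6, 250 bases before to 50 after the annotated start) are shown here, chosen after the levels and the motif matches had been seen. Slc1a1, Slc7a10 and Slc43a1 were higher in the Nfib-null column by 2-fold or more and Slc38a2 was lower, while Slc1a4 lay within 2-fold and is shown for its ATF4 match. Slc43a2 (higher) and Slc7a1 (lower) also have windows there, which are not printed. Capitals mark matches on either strand to TGATGNAA (the element bound by ATF4), TTCNNNGAA (STAT) or TTGGC (a single arm of the palindrome bound by NFI proteins).
Slc1a1: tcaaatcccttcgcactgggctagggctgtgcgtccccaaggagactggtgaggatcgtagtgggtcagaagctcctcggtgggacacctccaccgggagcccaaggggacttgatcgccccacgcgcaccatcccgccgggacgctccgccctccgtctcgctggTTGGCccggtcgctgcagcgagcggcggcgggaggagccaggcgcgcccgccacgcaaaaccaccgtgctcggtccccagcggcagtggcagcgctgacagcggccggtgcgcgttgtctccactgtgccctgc
Slc7a10: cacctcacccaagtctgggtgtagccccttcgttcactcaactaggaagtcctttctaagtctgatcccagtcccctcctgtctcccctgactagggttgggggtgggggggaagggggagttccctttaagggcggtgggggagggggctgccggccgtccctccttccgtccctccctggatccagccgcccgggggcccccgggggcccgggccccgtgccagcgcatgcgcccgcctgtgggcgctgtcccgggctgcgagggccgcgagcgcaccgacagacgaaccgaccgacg
Slc43a1: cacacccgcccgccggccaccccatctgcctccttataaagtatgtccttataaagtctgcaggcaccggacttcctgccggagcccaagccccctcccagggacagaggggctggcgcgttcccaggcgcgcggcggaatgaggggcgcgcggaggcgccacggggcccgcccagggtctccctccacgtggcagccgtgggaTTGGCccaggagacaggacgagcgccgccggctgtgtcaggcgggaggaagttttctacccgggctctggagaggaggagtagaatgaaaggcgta
Slc1a4: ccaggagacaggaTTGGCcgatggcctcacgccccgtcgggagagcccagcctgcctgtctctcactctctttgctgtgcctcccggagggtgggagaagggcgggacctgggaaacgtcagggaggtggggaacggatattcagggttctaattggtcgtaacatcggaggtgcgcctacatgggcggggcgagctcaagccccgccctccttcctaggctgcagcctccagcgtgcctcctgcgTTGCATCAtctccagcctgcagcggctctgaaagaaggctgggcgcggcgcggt
Slc38a2: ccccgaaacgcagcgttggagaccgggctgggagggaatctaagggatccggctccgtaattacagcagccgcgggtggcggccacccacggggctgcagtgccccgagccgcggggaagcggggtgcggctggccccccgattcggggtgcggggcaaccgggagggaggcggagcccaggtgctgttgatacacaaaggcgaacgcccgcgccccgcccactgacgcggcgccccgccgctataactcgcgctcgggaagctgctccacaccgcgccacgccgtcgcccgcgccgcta

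These windows, given 5′ to 3′ on the gene's strand, lie at chr19:28834885-28835184 (Slc1a1, plus strand), chr7:35186135-35186434 (Slc7a10, plus strand), chr2:84840073-84840372 (Slc43a1, plus strand), chr11:20332664-20332963 (Slc1a4, minus strand) and chr15:96699679-96699978 (Slc38a2, minus strand). A table entry was found for 20 of the 30 kept members, with 31 windows. Of the members beyond 2-fold, Slc1a5, Slc7a5, Slc36a2, Slc7a4, Slc38a3 and Slc6a6 had none. The others without a window were Slc6a8, Slc7a2, Slc38a1 and Slc43a3. The full NFI palindrome, TTGGC and its reverse complement with 5 bases between them, was found in 0 of these 31 windows and in 0.0365% of the 32851 windows in the table. At least 1 TTGGC was found in 13 of the 31 windows, which belong to 11 members, against 46.7% of all windows. Slc1a1, Slc43a1 and Slc1a4 had 1 each and Slc43a2 had 2 in each of its windows, while Slc7a10, Slc38a2 and Slc7a1 had 0. The ATF4 element was found in 3 of the 31 windows, against 3.97% of all windows, namely that of Slc1a4 and a pair of overlapping windows of Slc7a7, and in Slc1a4 its first base lay at −4 from the start. The STAT motif was found in 3 of the 31 windows, 1 each of Slc1a3, Slc38a9 and Slc7a1, against 8.3% of all windows. The Slc38a2 window was the richest in CpG of the 5, with 41 CpG dinucleotides against a median of 7 over all windows. A match to these letters is a description and not a binding site.

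Among the sodium-coupled carriers of neutral amino acids, Slc1a5 replaced Slc38a2 as the most abundant mRNA. Slc1a5, the ASCT2 exchanger known for glutamine uptake, reached 186 RPKM in Nfib-null against 31.5 RPKM in wild-type glands (log2 difference 2.12). Its close relative Slc1a4 (ASCT1), which carries alanine, serine and cysteine, stood at 18.0 against 27.9 RPKM, a difference of −0.995 that fell just short of 2-fold. That difference was beyond 2-fold with scaling to luminal markers (−1.59) and with a pseudocount of 0.1 (−1.04). The ratio of Slc1a5 to Slc1a4 was thus 1.13 for wild-type and 10.3 for Nfib-null glands, a comparison within each column that no single factor per column can change. Slc38a2 (SNAT2), a carrier of small neutral amino acids whose expression is known to respond to amino acid supply, stood at 56.6 against 107 RPKM (−1.31). It came within 2-fold with values as deposited (−0.91). Slc38a3 (SNAT3), a carrier of glutamine and histidine, stood at 6.30 against 17.8 RPKM (−1.74), and Slc38a1 (SNAT1) was low in both columns, at 1.27 against 1.63 RPKM. Of the summed level of these and Slc38a4 and Slc38a5, Slc1a5 made up 69.0% in the Nfib-null column and 16.9% in the wild type, and Slc38a2 21.1% against 57.5%.

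The acidic amino acid carriers of the Slc1 family were represented by Slc1a1 and Slc1a3. Slc1a1 (EAAC1), which takes up glutamate, aspartate and cysteine, measured 8.35 RPKM in Nfib-null against 0.586 RPKM in wild-type glands. Its log2 difference was 2.30, and was 1.11 with a pseudocount of 5 and 3.24 with 0.1. With a pseudocount of 5 the difference of Slc1a5 was larger (2.01), as it was after quantile normalization (2.38 against 2.21). By the rough depth estimate, the wild-type value corresponds to about 19.1 reads per kb of transcript over both libraries. In the GENCODE annotation 31.9% of the exonic bases of Slc1a1 also lie in 4430402I18Rik on the opposite strand, whose own level was 0.982 against 0.455 RPKM. Slc1a3 (GLAST), another glutamate carrier, stood at 22.6 against 12.1 RPKM (0.46, and −0.13 with scaling to luminal markers). Slc1a2, Slc1a6 and Slc1a7 lay at or below 0.101 RPKM in both columns.

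The heavy chain gene Slc3a2 (4F2hc, CD98), which brings its Slc7 light chains to the cell surface, differed little between the columns while some of its light chains differed by 2-fold or more. Slc3a2 measured 91.2 RPKM in Nfib-null against 70.9 RPKM in wild-type glands, a log2 difference of −0.05 whose sign turned with the scaling (0.36 as deposited, 0.19 after quantile normalization, 0.12 with equal sums). The 6 known light chain genes summed to 127 against 130 RPKM. Slc7a5 (LAT1), the exchanger that brings in leucine and other large neutral amino acids, stood at 53.2 against 90.5 RPKM (−1.16). It was within 2-fold as deposited (−0.76), after quantile normalization (−0.93) and with equal sums (−0.99). Slc7a10 (Asc-1), an exchanger of small neutral amino acids such as serine, glycine and alanine and a known surface protein of white fat cells, stood at 50.9 against 8.03 RPKM (2.14). Slc7a5 held 69.7% of the light chain RPKM in wild-type and 42.0% in Nfib-null glands, and Slc7a10 held 6.18% and 40.1%.

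The other light chains were lower by less than 2-fold with median-ratio scaling. Slc7a8 (LAT2) stood at 5.63 against 8.71 RPKM (−0.91), Slc7a7 (y+LAT1) at 9.77 against 12.9 RPKM (−0.75) and Slc7a6 (y+LAT2) at 6.93 against 9.12 RPKM (−0.72). With scaling to luminal markers they were beyond 2-fold (−1.45, −1.32 and −1.27), as was Slc7a8 with a pseudocount of 0.1 (−1.03). Slc7a7 and Slc7a6 export cationic amino acids in exchange for neutral ones with sodium. Slc7a11 (xCT), the cystine and glutamate exchanger, was low in both columns, at 0.370 against 0.537 RPKM. The second heavy chain gene, Slc3a1 (rBAT), stood at 0.329 against 0.119 RPKM, and 26.5% of its exonic bases lie in Prepl on the opposite strand (8.63 against 6.95 RPKM).

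**Figure D2:**
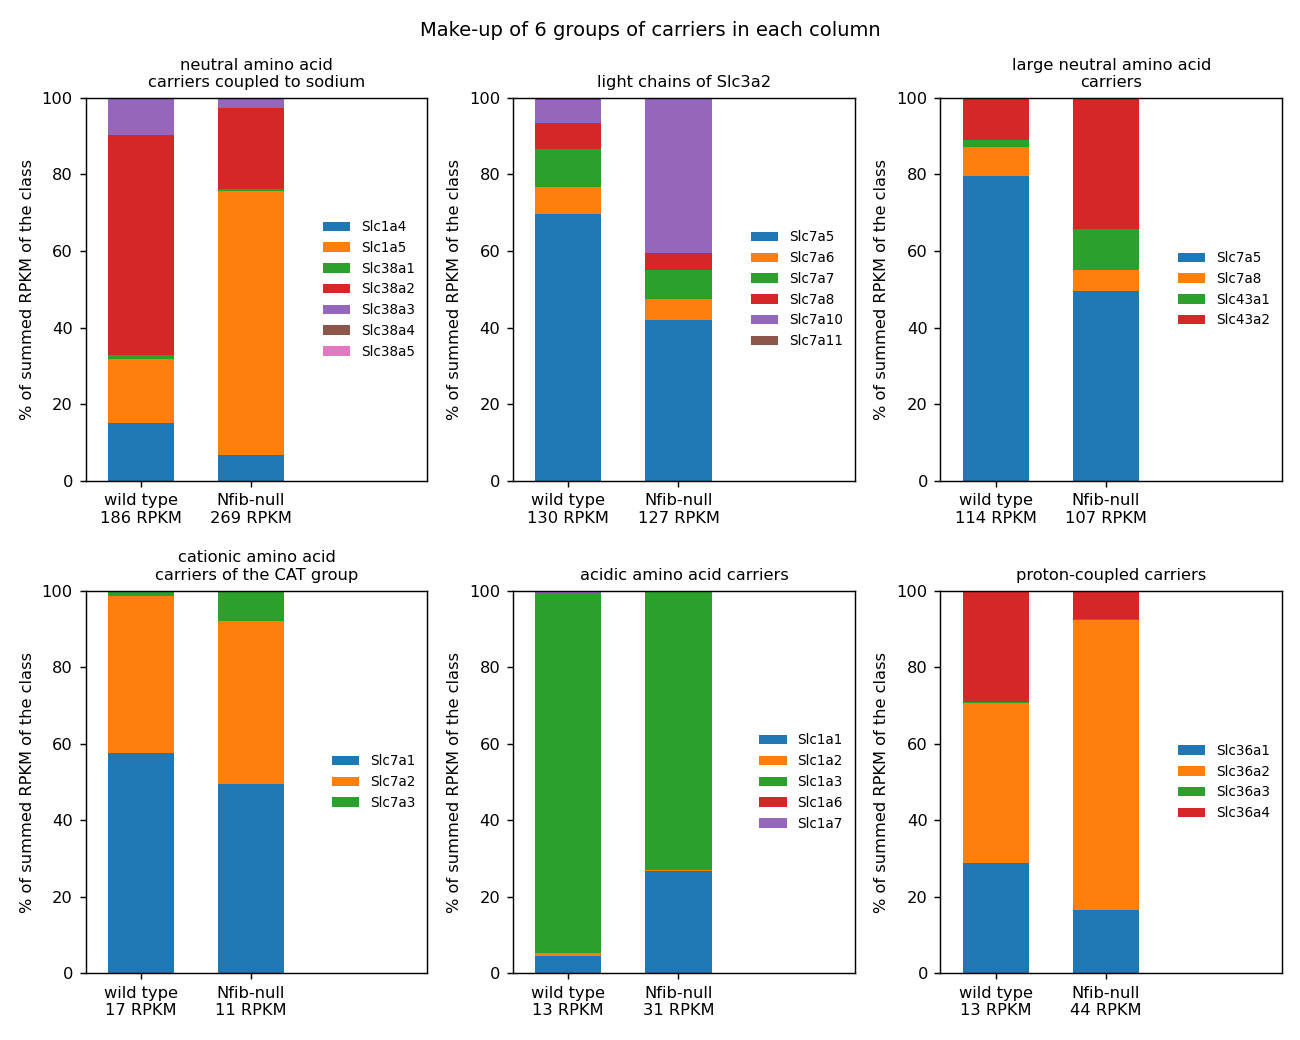
Share of each gene in the summed RPKM of 6 groups of carriers, with the wild-type column on the left and the Nfib-null column on the right of each panel and the summed RPKM below each bar. The largest share passes from Slc38a2 (57.5%) to Slc1a5 (69.0%) among the sodium-coupled neutral carriers, and Slc7a10 goes from 6.18% to 40.1% of the Slc3a2 light chains.

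The cationic carriers of the Slc7 family, which take up arginine, lysine and ornithine, had lower values in the Nfib-null column where they were above the minimum. Slc7a1 (CAT-1) stood at 5.33 against 9.69 RPKM (−1.11), within 2-fold as deposited (−0.75), with equal sums (−0.96) and with a pseudocount of 5 (−0.75). Slc7a2 (CAT-2) stood at 4.60 against 6.91 RPKM (−0.85, and −1.37 with scaling to luminal markers, beyond 2-fold). Slc7a4, a relative of the CAT carriers whose own transport function is uncertain, had the largest difference of the lower members, at 6.34 against 26.7 RPKM (−2.29). It was beyond 2-fold in all 8 other settings, with values from −2.85 to −1.77. P2rx6, which shares 13.3% of the exonic bases of Slc7a4 on the opposite strand, stood at 1.15 against 1.56 RPKM. Slc7a3 (CAT-3), at 0.849 against 0.243 RPKM, lay below the minimum and went the other way. Of the 8 Slc7 genes kept, 7 were below 0 in every setting, all but Slc7a10, and the family median was −0.88.

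The facilitated carriers Slc43a1 and Slc43a2, which share large neutral amino acids with Slc7a5 as substrates, were higher in the Nfib-null column. Slc43a1 (LAT3) stood at 11.6 against 2.02 RPKM (1.73, and 1.04 with a pseudocount of 5). Slc43a2 (LAT4) stood at 36.7 against 12.4 RPKM (1.10), and came within 2-fold with scaling to luminal markers (0.50) and with a pseudocount of 5 (0.93). Slc43a3, a family member known to carry purine nucleobases and not amino acids, stood at 28.8 against 11.8 RPKM (0.83, and 1.22 as deposited). Together Slc7a5, Slc7a8, Slc43a1 and Slc43a2 summed to 107 RPKM in Nfib-null and 114 RPKM in wild-type glands, of which Slc7a5 made up 49.7% and 79.6%. The ratio of Slc43a2 to Slc7a5 was 0.690 in the Nfib-null column and 0.137 in the wild type.

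Of the proton-coupled carriers, Slc36a2 alone differed by 2-fold. Slc36a2 (PAT2), a carrier of glycine, alanine and proline that is also known as a surface protein of fat cells, measured 33.3 RPKM in Nfib-null against 5.23 RPKM in wild-type glands (2.09). Slc36a1 (PAT1), found on lysosomes, stood at 7.21 against 3.63 RPKM (0.48, and −0.04 with scaling to luminal markers), and Slc36a4 (PAT4) at 3.27 against 3.66 RPKM (−0.44). As deposited, Slc36a2 was 6.36 times, Slc7a10 6.34 times and Slc1a5 5.89 times as high in the Nfib-null column as in the wild type. Slc1a1, at 0.586 RPKM in the wild type, had the largest such ratio of the kept members (14.3 times), and Slc43a1 was 5.73 times as high. The summed adipocyte markers were 4.84 times as high and the summed luminal markers 1.92 times. Sums of the other marker lists ranged from 0.281 times (milk proteins) to 3.42 times (macrophages) and 3.68 times (fibroblasts). Fabp4 alone held 5819 RPKM of the Nfib-null adipocyte sum of 10416 RPKM. Adiponectin (Adipoq) stood at 677 against 112 RPKM (2.18) and the lipid droplet gene Cidec at 503 against 69.3 RPKM (2.43). Both lie toward the upper end of the 10 adipocyte markers, which ranged from 0.73 (Pparg) to 2.43 (Cidec) with a median of 1.89. The part of fat cells in the values of Slc7a10, Slc36a2, Slc1a5, Slc1a1 and Slc43a1 was not tested. The exons of Slc7a10 overlap those of Lrp3 on the opposite strand over 17.9% of their bases, and Lrp3 stood at 6.85 against 1.58 RPKM (1.30).

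Members of the Slc38 family placed inside the cell or of less known function lay within 2-fold. The lysosomal carriers Slc38a7, which exports glutamine, and Slc38a9, which senses arginine for mTORC1, the kinase complex that couples amino acids to growth, stood at 10.9 against 6.42 RPKM (0.32) and 2.69 against 1.73 RPKM (0.15). Slc38a6 stood at 8.34 against 6.15 RPKM (0.02) and Slc38a10 at 38.2 against 45.1 RPKM (−0.64, and −1.25 with scaling to luminal markers, beyond 2-fold). The sign of Slc38a7, Slc38a9 and Slc38a6 turned with scaling to luminal markers (−0.24, −0.28 and −0.53).

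The Slc6 family, best known for neurotransmitter uptake, had 17 members in the table, of which 4 passed the minimum. Slc6a6 (TauT), the taurine carrier, measured 29.9 RPKM in Nfib-null against 9.32 RPKM in wild-type glands (1.20). It was within 2-fold with scaling to luminal markers (0.61) and with a pseudocount of 5 (0.97). The creatine carrier Slc6a8 stood at 14.9 against 11.9 RPKM (−0.08, and 0.31 as deposited). The glycine carrier Slc6a9 (GlyT1) stood at 3.04 against 2.20 RPKM (0.04, and −0.42 with scaling to luminal markers), with 30.2% of its exonic bases shared with other genes, among them B4galt2 (2.73 against 1.00 RPKM). Slc6a13 (GAT-2), a carrier of GABA and taurine, stood at 3.04 against 0.737 RPKM (0.98), just short of 2-fold, and at 1.53 with a pseudocount of 0.1.

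The remaining 29 members lay below the minimum, and 24 of them below 0.5 RPKM. Those between 0.5 and 1 RPKM were Slc6a15 (1.18 against 0.440 RPKM), Slc38a4 (1.06 against 0.275), Slc6a14 (1.01 against 0.163), Slc7a3 and Slc7a14 (0.533 against 0.601). Just above the minimum stood Slc38a1, at 1.41 RPKM averaged over all libraries, and just below it Slc6a15, at 0.882 RPKM. Slc6a14, a carrier of broad specificity for neutral and cationic amino acids, was thus low in both columns. Slc6a5, Slc6a11 and Slc7a12 were listed at 0 in both columns, and Slc6a3, Slc7a9 and Slc38a8 in 1 of them. As deposited, 21 of the 29 were higher in the Nfib-null column and 5 lower, before any scaling and at values too low to call. Slc6a20a and Slc6a20b, whose symbols do not end in a number, are not among the 59.

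**Figure D3:**
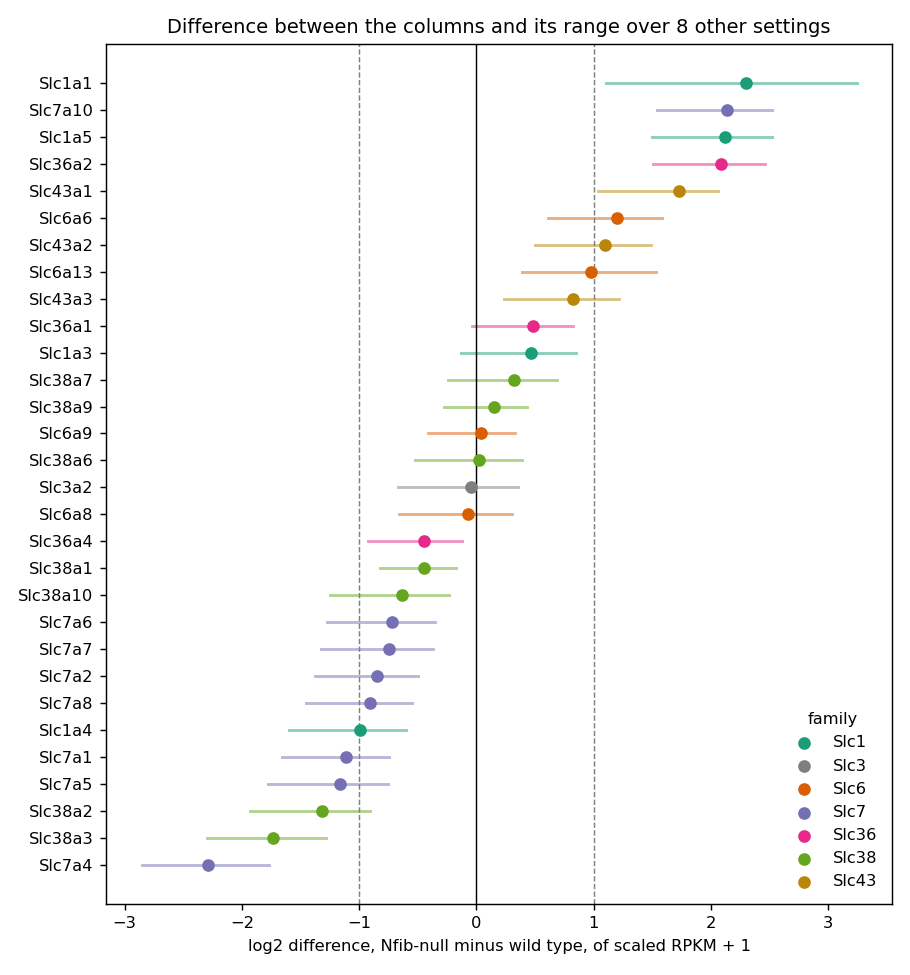
Log2 difference of the 30 kept members, Nfib-null minus wild type, of scaled RPKM + 1, as points coloured by family, with lines for the range over 8 other settings and dashed lines at 2-fold. The lines of Slc1a1, Slc7a10, Slc1a5, Slc36a2 and Slc43a1 stay above the upper dashed line and those of Slc7a4 and Slc38a3 below the lower one.

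Other genes of amino acid metabolism were described as lists and read against the same background of 6.95% higher and 5.97% lower. Of 20 genes of amino acid synthesis, 7 were at least 2-fold lower and 1 higher (median −0.62). Among the lower genes were Aldh18a1 (20.2 against 81.6 RPKM, −2.36) and Pycr1 (2.04 against 9.60 RPKM, −2.12), enzymes that make proline from glutamate. Further lower genes, singled out once the values were known, were the asparagine synthetase Asns (30.5 against 75.5 RPKM, −1.68), Ass1, Phgdh and Gpt2, and the higher one was the glutamine synthetase Glul (322 against 57.7 RPKM, 2.05). With values as deposited and with equal sums 4 of the 20 were lower, against 2.95% and 4.38% of all genes. With scaling to luminal markers 12 were, against 20.8% of all genes.

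Of 21 genes of amino acid breakdown above the minimum, 5 were at least 2-fold lower and 0 higher (median −0.56). They were led by Arg2, the mitochondrial arginase that gives ornithine (4.78 against 27.2 RPKM, −2.65), Odc1, which turns ornithine into putrescine (50.4 against 162, −2.08), and Gldc of the glycine cleavage system (37.0 against 104, −1.87). The carriers that bring in arginine and ornithine, Slc7a1 and Slc7a2, had differences of −1.11 and −0.85.

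The lists of amino acid sensing differed less. Of 15 genes of the amino acid response, which the factor ATF4 carries out when amino acids run short, 1 was higher and 1 lower (median 0.10), namely Atf3 (6.87 against 1.05 RPKM, 1.66) and Nupr1 (176 against 275 RPKM, −1.05). As deposited, after quantile normalization and with equal sums 0 of the list were lower, and with a pseudocount of 5 or a minimum of 5 RPKM 0 were higher. Atf4 itself, also singled out afterwards, stood at 102 against 150 RPKM (−0.96). Cebpb of the same list went the other way to a similar extent, at 47.2 against 17.9 RPKM (0.95). Of 25 genes of the mTORC1 pathway above the minimum, 2 were lower, Sec13 (50.7 against 87.2 RPKM, −1.18) and Rheb (48.0 against 77.7, −1.09), and 0 higher. Both were within 2-fold with values as deposited and after quantile normalization, where 0 of the list were lower. Of 16 other amino acid and peptide carriers and their partners, 8 passed the minimum, and 0 of these were higher by 2-fold (median 0.37).

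**Figure D4:**
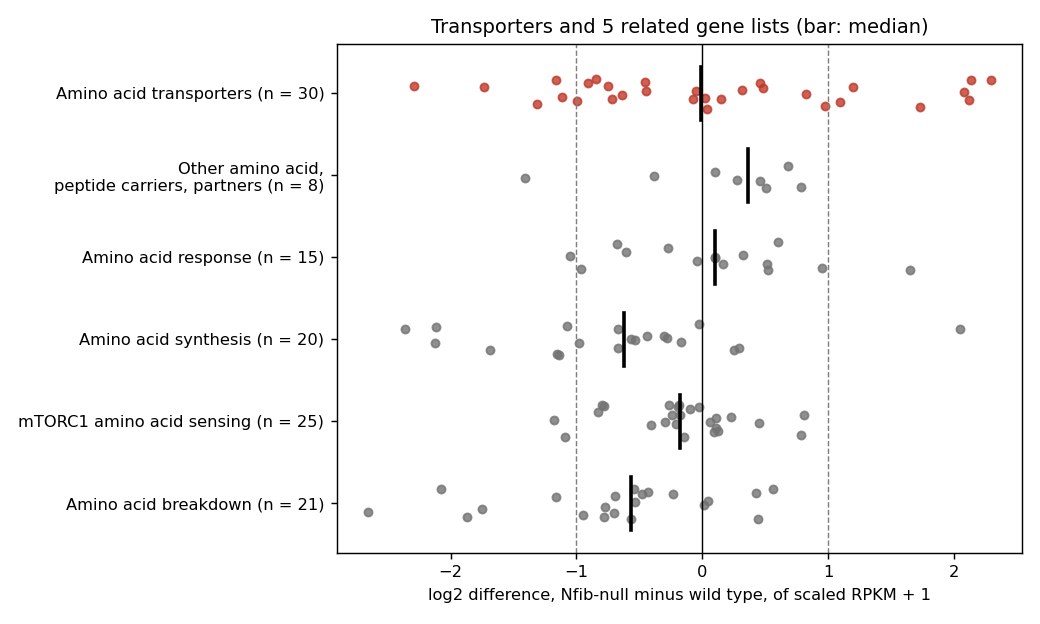
Log2 difference of the kept genes in the transporter set and 5 related lists, each point a gene, with a bar at the median and dashed lines at 2-fold. The transporters spread from −2.29 to 2.30 around a median of −0.01, and the medians of the synthesis and breakdown lists lie at −0.62 and −0.56.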

How the data were processed

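The authors deposited a table of RPKM values (unit per the file headers) with 22609 genes and 1 column for each of the 2 groups. Per the submitters' processing notes, CASAVA, TopHat and mm9 were used, in unstated roles. The counting tool and the annotation were not given in the sources read. Libraries were made from poly(A) RNA with the TruSeq RNA kit, per the labels' protocols, and no label says that strand was used in counting. In the Nfib-null column 84.4% of the 12205 values with 10 decimals end as a mean of 3 does. No kept member shares its exact value with another gene.

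The table was analysed with pandas 2.3.3 in Python 3.11.15. Genes with (3 × Nfib-null + 2 × wild type)/5 of at least 1 RPKM were kept, 12511 in all. Columns were divided by median-ratio factors of 1.15 and 0.867, with a pseudocount of 1 on the log2 scale, which understates the change of low genes. The procedure was tested on simulated data. All kept members are named, and of each related list up to 3 genes of largest difference beyond 2-fold, except items not reported here. Members, lists and groups of carriers were chosen with earlier results of these data known. Exon overlaps come from GENCODE M21 (GRCm38) and promoter windows from RefSeq.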

Additional observations from a re-analysis of the deposited data

How the results depend on the processing

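No paired analysis was possible because the table holds 1 value per group, and for the same reason no library could be left out and no test run. The 8 other settings were values as deposited, quantile normalization, equal sums without the 20 most abundant genes, scaling to luminal markers, pseudocounts of 0.1 and 5, no minimum and a minimum of 5 RPKM. Values as deposited moved the median of all genes by 0.35, equal sums by 0.15 and luminal scaling by −0.54. Of the 30 members 17 kept their call in every setting that held them, 5 of them higher and 2 lower, and the sign of 8 turned in some setting, none of these beyond 2-fold.

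Luminal scaling gave 11 lower members and family medians of 0.68 (Slc1), −1.41 (Slc7), −0.0416 (Slc36) and 0.50 (Slc43). It also gave 4 lower genes and a median of −0.42 in the amino acid response, 12 and −1.15 in synthesis, 5 lower genes in mTORC1 sensing, 15 and −1.16 in breakdown, and a median of −0.18 for the other carriers. As deposited, 2 members were lower, the Slc3 median was 0.36, and 2 other carriers were higher. In the same setting the response list had 2 higher and 0 lower genes, synthesis 4 lower, and mTORC1 sensing 2 higher, 0 lower and a median of 0.20. Equal sums gave 3 lower members, a Slc3 median of 0.12, 2 higher and 0 lower response genes, 4 lower synthesis genes and 1 lower mTORC1 gene. Quantile normalization gave a Slc3 median of 0.19, 2 higher and 0 lower response genes and 0 lower mTORC1 genes. These counts stand beside the shares over all genes. With luminal scaling 2.11% of all genes were higher and 20.8% lower, and as deposited 14.4% and 2.95%. With equal sums the shares were 9.38% and 4.38%, and after quantile normalization 6.75% and 5.48%.

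A pseudocount of 5 gave medians of 0.74 (Slc1) and 0.93 (Slc43), 0 lower other carriers, 0 higher response genes and 3 lower breakdown genes. With 0.1 the Slc7 median was −1.003 and 1 other carrier was higher. Without a minimum the medians of Slc1, Slc3 and Slc38 were 0.0103, 0.0642 and 0.0032, since most added members lie near 0. A minimum of 5 RPKM gave a Slc36 median of 1.28 from fewer genes, 0 lower other carriers and 0 higher response genes. A fold limit of 4 left 4 higher and 1 lower member, against 0.727% and 1.23% of all genes, and a limit of 1.5 gave 11 lower, against 14.7%. Of all genes 2.77% were higher and 3.55% lower with a pseudocount of 5, 10.5% and 7.53% with 0.1, and 7.54% and 6.8% with a minimum of 5 RPKM. Except where the setting itself removed or added genes, the cause was not tested.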
